A study of Mus musculus with 52 samples.

Results

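The 9 genes Glul, Axin2, Lgr5, Tbx3, Slc1a2, Oat, Lect2, Rnf43 and Znrf3, known as Wnt targets of the hepatocytes around the central vein, were followed in mouse liver after partial hepatectomy, in which most liver lobes are cut away and those left behind grow back to the former mass. Of the probe sets annotated to a gene and to no other, the one brightest on average over all arrays stood for that gene. All 9 were found, with 21 such probe sets between them, among 18194 genes measured by 45101 probe sets. One further probe set, shared by Slc1a2 and another gene, was left out. The 52 arrays held liver RNA of C57Bl6/N mice labelled male, 8 to 12 weeks old and on a standard diet. This age is given alike for all groups, also that of 3 months, so the age at sampling is not known. Untreated mice gave 5 control arrays. Operated mice were sampled at 11 times. There were 4 arrays each for the groups of 6 hours, 12 hours, 48 hours, 3 days, 4 days, 1 week and 4 weeks, 3 each for 1 hour and 3 months, 11 for 24 hours and 2 for 2 weeks. No allele, transgene or drug was named in the labels of any group, and sham-operated livers were not analysed here. Surgery, tissue loss, hour of sampling and, at later times, age therefore cannot be told apart in a comparison with the controls. Whether each array stands for its own mouse is not stated in the labels, and the p-values therefore measure the spread between arrays.

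Hepatocytes carry out different tasks along the path of the blood from the portal triad to the central vein, and Wnt signalling keeps the pericentral programme in place. Endothelial cells at the central vein secrete Wnt2, Wnt9b and Rspo3. A Wnt ligand that binds a Frizzled receptor and an LRP co-receptor stops the destruction complex from degrading beta-catenin, which then switches on genes together with TCF/LEF factors in the nucleus. The ubiquitin ligases RNF43 and ZNRF3 remove Frizzled from the cell surface, and R-spondins bound to LGR4 or LGR5 hold these ligases back. Several targets act on the pathway that induces them: Axin2 is a scaffold of the destruction complex, Rnf43 and Znrf3 encode the ligases and Lgr5 the R-spondin receptor. Glul (glutamine synthetase), Slc1a2 (a glutamate transporter) and Oat (ornithine aminotransferase) serve the glutamate and glutamine metabolism of the pericentral layer. Tbx3 is a T-box transcription factor, and Lect2 is a protein that hepatocytes secrete.

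The genes lie apart in the genome. On assembly GRCm38.p6 Glul spans chr1:153899929-153909723, Axin2 chr11:108917828-108950783, Lgr5 chr10:115450314-115587780, Tbx3 chr5:119670534-119684724, Slc1a2 chr2:102658239-102790784, Oat chr7:132557475-132576398, Lect2 chr13:56529734-56548559, Rnf43 chr11:87663087-87735539 and Znrf3 chr11:5276329-5444847. RefSeq promoters of that assembly were listed for 6 of the 9: Glul, Axin2, Slc1a2, Oat, Lect2 and Rnf43. The 250 bases before each start were searched on both strands for 4 TCF/LEF-type motifs, namely CTTTGAA, beside it CTTTGAT, then the form CTTTGTA and last the form CTTTGTT. At least 1 of these 4 occurred in 14.8% of all 32851 promoters, and CTTTGAT in 3.21%. Among the genes listed here, Lect2 and Slc1a2 each held 1 CTTTGAT, on the reverse strand. None of the 4 occurred in this window of Glul, Axin2, Oat or either listed start of Rnf43. The windows of Lect2 and Slc1a2 are shown because they hold the motif, and those of Axin2 and Rnf43 (upstream start) because these genes fell early and hold none. All are written 5′ to 3′ on the strand of the gene, with the motif in capitals as read on that strand. The listed starts of Lect2, Slc1a2 and Axin2 lie inside the span of the gene given above.

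Lect2, chr13:56548539-56548788, minus strand: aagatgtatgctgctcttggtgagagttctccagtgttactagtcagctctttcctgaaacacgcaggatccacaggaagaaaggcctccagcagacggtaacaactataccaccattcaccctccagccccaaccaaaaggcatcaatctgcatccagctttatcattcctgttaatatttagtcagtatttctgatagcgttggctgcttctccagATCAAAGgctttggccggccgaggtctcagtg
Slc1a2, chr2:102706188-102706437, plus strand: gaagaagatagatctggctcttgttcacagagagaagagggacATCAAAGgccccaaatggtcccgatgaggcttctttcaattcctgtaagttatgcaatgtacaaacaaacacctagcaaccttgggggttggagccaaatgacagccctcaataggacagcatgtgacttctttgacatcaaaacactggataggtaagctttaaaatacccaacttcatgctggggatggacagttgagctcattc
Axin2, chr11:108920099-108920348, plus strand: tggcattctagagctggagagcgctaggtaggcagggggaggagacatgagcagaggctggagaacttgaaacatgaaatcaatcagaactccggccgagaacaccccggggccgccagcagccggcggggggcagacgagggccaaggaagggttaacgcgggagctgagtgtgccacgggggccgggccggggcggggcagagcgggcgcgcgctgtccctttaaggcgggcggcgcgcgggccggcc
Rnf43, chr11:87662837-87663086, plus strand: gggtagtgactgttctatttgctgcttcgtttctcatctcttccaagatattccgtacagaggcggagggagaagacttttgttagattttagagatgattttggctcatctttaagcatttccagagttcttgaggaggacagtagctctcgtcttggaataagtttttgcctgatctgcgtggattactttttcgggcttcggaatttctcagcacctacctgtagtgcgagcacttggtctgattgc

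Values are log2 expression as deposited, changes are differences of group means on that log2 scale ± SE, and a gene was called where limma gave an adjusted p under 0.05 (Benjamini-Hochberg over all 18194 genes of a comparison, two-sided). A group mean at or under the median of all probe sets, between 3.92 and 4.04 in the 12 groups, is near background. A change against it is also given as a lower bound of the fold, with that median in place of the dim mean. This bound allows for background only and leaves out the spread of the arrays, so the true fold can be smaller. In an earlier analysis of these data 7 arrays were marked, and they are called here the arrays that stood apart. These were control replicate 1, replicates 1, 9, 10 and 11 at 24 hours, replicate 4 at 1 week and replicate 1 at 4 weeks. The 24-hour replicates 9, 10 and 11 are labelled male but had Xist, which silences an X chromosome in female cells, at 9.12 to 9.48, against 2.51 to 3.81 on the other 49 arrays. Over the 2000 most variable genes, 4-week replicate 1 resembled the 12-hour mean (r = 0.941) and not the rest of its group (-0.499). By the same measure control replicate 1 (0.837) lay within the range of the controls (0.82 to 0.913). The 24-hour replicates 9, 10 and 11 (0.613, 0.628 and 0.643) were among the best fits of their group, which ran from 0.2 to 0.643. Unmarked arrays such as 3-day replicate 2 (0.127) and 24-hour replicates 2 and 5 (0.201 and 0.2) fitted their groups poorly. Results without the 7 arrays depend on that choice of arrays. The controls also had brighter hybridization controls (10.85 ± 0.29, SD, n = 5) than any operated group (means between 9.73 and 10.38), and a larger Gapdh 3' minus 5' difference (1.61 ± 0.57, SD, n = 5, against means between 0.65 and 1.10). Their poly-A controls were brightest on average too (6.88 ± 0.43, SD, n = 5), against means between 4.89 at 4 days and 6.67 at 48 hours. A fit with one of these measures as a covariate cannot fully separate it from the operation. Defining hepatocyte markers were high in every group, with a mean level of 12.98 in the controls. In bulk tissue, fewer cells of a type and less RNA per cell cannot be told apart.

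Most calls of the target genes were lower, 9 of the 18 at 6 and 12 hours and 9 from 3 days on. Over the 11 times, 20 of the 99 comparisons with untreated liver were called (20.2%), 2 higher and 18 lower. Over all genes 25.2% of such comparisons were called, 14.6% higher and 10.6% lower, so the calls of the 9 genes were no more frequent than the background and lay mostly in the lower direction. Lower calls fell to Axin2 (7 times), Lgr5 (4), Znrf3 (3), Rnf43 (2), Tbx3 (1) and Lect2 (1), and both higher calls to Lect2. The 9 genes made 5 calls at 6 hours, all lower, where 22.0% of all genes were called and 10.5% were lower. At 12 hours 4 were called lower (12.0% of all genes lower) and at 1 hour none (5.04% of all genes called). At 24 and at 48 hours the only call was Lect2, higher, where 18.9% and 17.4% of all genes were higher. A further quantile normalization moved the share of higher genes among all called genes from 59.7% to 46.8% at 24 hours and from 56.5% to 45.5% at 48 hours. At the later times the lower calls numbered 1 at 3 days, 3 both at 4 days and at 1 week, and 1 both at 4 weeks and at 3 months. At these times in turn 17.7%, 14.1%, 14.9%, 5.39% and 13.4% of all genes were lower. None of the 9 was called at 2 weeks (3.41% of all genes called). Between successive times after the operation, a comparison without control arrays, 6 of 90 comparisons were called (6.67%), 3 higher and 3 lower, against 3.85% over all genes (2.22% higher and 1.63% lower). The median change of the 9 genes was -0.67 at 6 hours and -0.66 at 12 hours, and that of all genes -0.02 and -0.04. In the F test over all 11 times, Axin2 (adjusted p = 0.01), Lgr5 (1.4e-06), Lect2 (1.9e-06), Rnf43 (2.5e-05) and Znrf3 (0.0056) were called, 55.6% of the 9 genes against 64.6% of all genes. Glul (0.19), Oat (0.2), Tbx3 (0.095) and Slc1a2 (0.061) were not. Without the 7 arrays all 9 were called in the F test, where 65.8% of all genes were. In that fit the calls were 1 higher and 6 lower at 6 hours (11.6% and 12.3% of all genes), 0 and 5 at 12 hours (17.6% and 12.3%), and 1 and 4 at 3 days (21.8% and 17.4%).

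**Figure D1:**
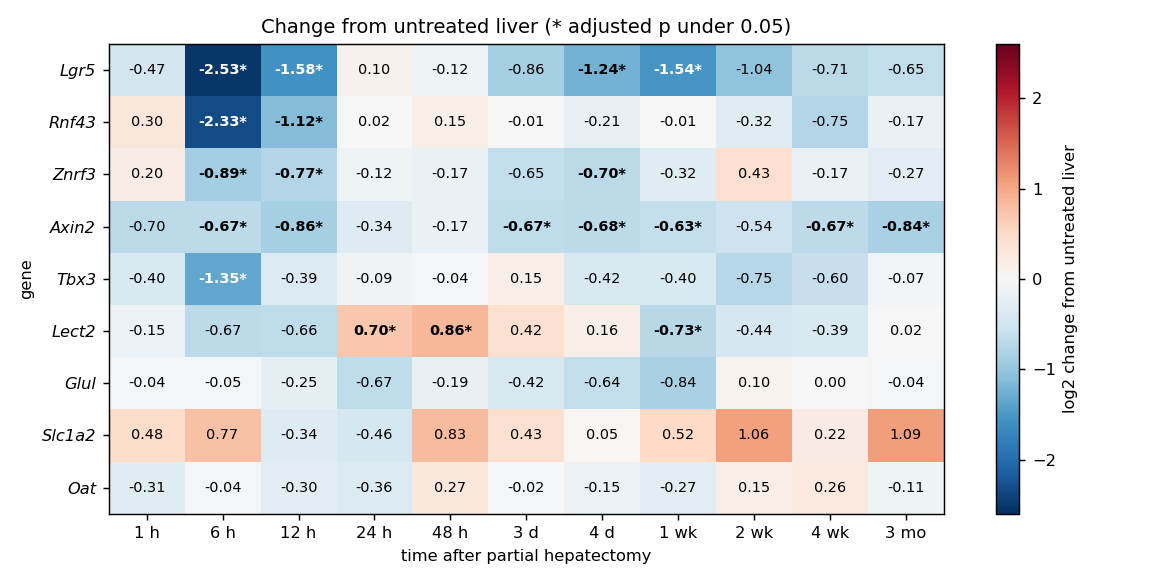
Log2 change from untreated liver of each gene (rows) at the 11 times (columns), with the value in each cell and an asterisk where limma's adjusted p was under 0.05. The darkest cells are Lgr5 (-2.53) and Rnf43 (-2.33) at 6 hours, and the only called increases are Lect2 at 24 hours (0.70) and 48 hours (0.86).

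Lgr5 and Rnf43, the R-spondin receptor and one of the ligases it restrains, had the deepest falls, both at 6 hours. Lgr5 read 6.03, 6.04, 5.90, 5.75 and 5.29 on the controls and 3.33, 3.52, 3.09 and 3.16 at 6 hours. The 6-hour arrays all lay far under the controls and under the median of all probe sets, 4.00, so the transcript was near background. The change was -2.53 ± 0.39 (adjusted p = 3e-06), at least a 3.49-fold fall. Rnf43 read 5.60, 6.04, 6.20, 5.51 and 5.84 on the controls and 3.52, 3.59, 3.28 and 3.62 at 6 hours. Again the groups did not overlap, as held for 29.6% of all genes at this time, and the 6-hour arrays were near background. The change was -2.33 ± 0.40 (adjusted p = 1.3e-05), by the group means at least a 3.58-fold fall.

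The fall of both genes came between 1 and 6 hours. At 1 hour Lgr5 read 4.93, 5.31 and 5.76, overlapping the controls (-0.47 ± 0.43, adjusted p = 0.66). Rnf43 read 6.25, 5.82 and 6.33, also overlapping them (0.30 ± 0.43, adjusted p = 0.81). From 1 to 6 hours, a comparison without the control arrays, Lgr5 changed by -2.06 ± 0.45 (adjusted p = 0.001) and Rnf43 by -2.63 ± 0.45 (adjusted p = 4.2e-05). Here 10.9% of all genes were called, 6.44% lower, and 3 of the 9 genes were, all lower, the third being Znrf3. By the group means the falls from 1 to 6 hours were at least 2.53-fold for Lgr5 and at least 4.41-fold for Rnf43. The falls of Lgr5 and Rnf43 at 6 hours, against either group, kept their direction and call under all 14 other settings tried and with any array of the compared groups left out.

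Both genes were still low at 12 hours, and at 24 hours their means lay near those of the controls, with widely spread arrays. Lgr5 read 4.56, 3.93, 4.29 and 4.12 at 12 hours, all under the lowest control, a separation that 32.8% of all genes had at this time (-1.58 ± 0.39, adjusted p = 0.0017). Rnf43 read 4.61, 4.63, 5.37 and 4.27, also all under the lowest control (-1.12 ± 0.40, adjusted p = 0.027). The Rnf43 call ended without control replicate 3 or without 12-hour replicate 1, 2 or 4 (adjusted p up to 0.092), although the change stayed between -1.33 and -0.97 with any array of the compared groups left out. That call ended also with the Gapdh 3' minus 5' difference as a covariate. At 24 hours Lgr5 ranged from 4.17 over a median of 5.92 to 7.08, and Rnf43 from 4.46 over a median of 6.10 to 6.85. Neither differed from the controls by the test (0.10 ± 0.32, adjusted p = 0.83, and 0.02 ± 0.32, adjusted p = 0.97). From 12 to 24 hours Lgr5 rose by 1.68 ± 0.34 (adjusted p = 0.00087) and Rnf43 by 1.14 ± 0.34 (adjusted p = 0.026), although the groups overlapped. The rise of Rnf43 lost its call without 12-hour replicate 1, 2 or 4 (adjusted p up to 0.13), with the poly-A controls as a covariate (0.11) and in a fit of these groups alone (0.094). At this step 9.72% of all genes were called, 5.13% higher, and of the 9 genes 3 were called, all higher: Lgr5, Rnf43 and Lect2.

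Znrf3, the other ligase, fell less and stayed above background. It read 6.38, 6.69, 6.67, 6.52 and 6.63 on the controls, 6.80, 6.75 and 6.78 at 1 hour, and 5.51, 5.45, 5.68 and 6.09 at 6 hours. All 6-hour arrays lay under all arrays of both earlier groups, and 33.1% of all genes had no overlap between 1 and 6 hours. The change was -0.89 ± 0.28 (adjusted p = 0.015) from untreated liver and -1.09 ± 0.32 (adjusted p = 0.017) from 1 hour. At 12 hours it read 6.02, 5.82, 5.98 and 5.43, still under the controls (-0.77 ± 0.28, adjusted p = 0.032). It also was called lower at 4 days (-0.70 ± 0.28, adjusted p = 0.049), where 5.69, 5.05, 6.58 and 6.20 overlapped the controls. With any array of the compared groups left out the change stayed between -1.03 and -0.82 at 6 hours, between -0.83 and -0.64 at 12 hours, between -1.23 and -1.01 from 1 to 6 hours, and between -0.93 and -0.42 at 4 days, but calls were lost. The 6-hour call against the controls ended without 6-hour replicate 2 (adjusted p = 0.054), the call against 1 hour without 6-hour replicate 2 or any of the 1-hour arrays (up to 0.061), the 12-hour call without 12-hour replicate 2 or 4 or control replicate 2, 3 or 5 (up to 0.11), and the 4-day call without any control array or without 4-day replicate 1 or 2 (up to 0.3). The 4-day call ended also under 6 of the 14 other settings, among them the hybridization and the poly-A controls as covariates (adjusted p up to 0.87).

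Axin2 was lower than in the controls at most times and came closest to them at 48 hours. It read 5.76, 5.93, 5.82, 5.50 and 5.47 on the controls. At 1 hour it read 5.04, 4.96 and 5.00, all under the lowest control, which held in one direction or the other for 19.1% of all genes, but the change of -0.70 ± 0.24 missed the threshold (adjusted p = 0.08). At 6 hours it read 5.25, 4.92, 5.05 and 4.88 (-0.67 ± 0.22, adjusted p = 0.021), and at 12 hours 4.85, 4.71, 5.07 and 4.74 (-0.86 ± 0.22, adjusted p = 0.0022). Both groups lay wholly under the controls, where 29.6% of all genes had no overlap at 6 hours and 32.8% at 12 hours. The 12-hour call held under the 14 settings and with any array of the compared groups left out. The 6-hour call ended without control replicate 2 or without 6-hour replicate 2 or 4 (adjusted p up to 0.065). With the poly-A controls as a covariate the calls of Axin2 at 6 hours (adjusted p = 0.077), Rnf43 at 12 hours (0.15) and Znrf3 at both times (0.074 and 0.18) ended. Those of Axin2 at 6 hours and Znrf3 at 12 hours ended also with the hybridization controls (0.058 and 0.067), and those of Axin2 at 6 hours and Znrf3 at both times with probe sets averaged per gene (up to 0.16). The 48-hour arrays at 5.61, 5.31, 5.62 and 5.58 overlapped the controls (-0.17 ± 0.22, adjusted p = 0.59).

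Axin2 was again called lower at 3 days (-0.67 ± 0.22, adjusted p = 0.014), 4 days (-0.68 ± 0.22, 0.015), 1 week (-0.63 ± 0.22, 0.022), 4 weeks (-0.67 ± 0.22, 0.031) and 3 months (-0.84 ± 0.24, 0.0069). At each of these times all its arrays lay under the lowest control. Separation of this kind, in either direction, held for 29.1%, 28.0%, 29.7%, 16.6% and 34.8% of all genes at these times in turn. At 3 months it read 4.52, 5.28 and 4.76. With the hybridization controls as a covariate these 5 calls ended, although the Axin2 changes, between -0.91 and -0.70, were no smaller (adjusted p from 0.17 to 0.3). With the poly-A controls they ended too, at changes between -0.60 and -0.37 (adjusted p from 0.14 to 0.45). Without 1-week replicate 4, at 4.32, the 1-week change was -0.38 (adjusted p = 0.19), and without the 7 arrays it was -0.36 (0.21). The 4-week call ended without the 7 arrays (-0.55, adjusted p = 0.13) and without 4-week replicate 1 or 2 or control replicate 1, 2 or 3 (adjusted p up to 0.14). The Gapdh 3' minus 5' difference as a covariate ended the 4-week call too. Without 3-day replicate 1, 4-day replicate 2 or 3-month replicate 1 the call of that time ended (adjusted p = 0.071, 0.072 and 0.073). In the comparison of 24 and 48 hours with 4 weeks and 3 months, which uses no control, Axin2 was 0.50 ± 0.16 higher (adjusted p = 0.022), one of 2 calls among the 9 genes, where 15.3% of all genes were called. This call ended without 3-month replicate 1 or 3 (adjusted p up to 0.095) and under 6 of the 14 other settings.

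Lgr5 was low a second time, from 4 days to 1 week. It read 4.75, 4.16, 4.51 and 4.84 at 4 days (-1.24 ± 0.39, adjusted p = 0.014) and 4.53, 4.37, 4.45 and 3.71 at 1 week (-1.54 ± 0.39, adjusted p = 0.002). All these arrays lay under the lowest control, 5.29, where 28.0% of all genes had no overlap at 4 days and 29.7% at 1 week. At 3 days the values 3.93, 5.67, 4.91 and 5.26 overlapped the controls (-0.86 ± 0.39, adjusted p = 0.077), and at 2 weeks the 2 arrays read 4.90 and 4.63 (-1.04 ± 0.49, adjusted p = 0.27). At 4 weeks and 3 months the values spread widely, from 3.69 to 5.85 and from 4.66 to 5.85, and neither time was called. The 1-week call held with any array of the compared groups left out, whereas the 4-day call ended without 4-day replicate 2 (adjusted p = 0.058). With the poly-A controls as a covariate both calls ended, and the 4-day change became 0.08. With the hybridization controls both ended as well (adjusted p = 0.44 at 4 days and 0.26 at 1 week). Rnf43 was not called at 1 week, where it read 6.25, 6.29, 6.11 and 4.66 (-0.01 ± 0.40, adjusted p = 0.98). The test of the 2 genes' difference at that time was not made.

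Tbx3 was called lower at 6 hours and at no other of the 11 times. It read 7.21, 8.00, 7.80, 6.33 and 6.97 on the controls and 6.27, 5.59, 5.84 and 5.96 at 6 hours. The control values were widely spread and the highest 6-hour array lay just under the lowest of them. The change was -1.35 ± 0.40 (adjusted p = 0.011), and it held with any array of the compared groups left out. A second bright probe set of Tbx3 gave -2.73 ± 0.56 at 6 hours (adjusted p = 0.00027). By 12 hours the arrays read 6.88, 6.68, 6.99 and 6.95, all above those at 6 hours (0.96 ± 0.43, adjusted p = 0.16) and within the range of the controls. Between 6 and 12 hours 29.6% of all genes had no overlap. The 24-hour arrays ran from 5.99 over a median of 7.29 to 8.81, the widest range of any Tbx3 group.

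Lect2 first lay under and then above the controls. It read 10.43, 10.33, 10.45, 10.57 and 10.57 on the controls, 9.92, 9.79, 9.79 and 9.70 at 6 hours, and 9.85, 9.64, 9.72 and 10.04 at 12 hours. All 8 early arrays lay under the lowest control, where 29.6% of all genes had no overlap at 6 hours and 32.8% at 12 hours. The changes of -0.67 ± 0.28 and -0.66 ± 0.28 missed the threshold (adjusted p = 0.084 and 0.071). Without the 7 arrays they were -0.68 and -0.67 and called (adjusted p = 2.3e-05 for both). At 24 hours it ran from 10.33 over a median of 11.21 to 11.61. Every 24-hour array lay above every 12-hour array, which held for 4.56% of all genes in either direction, and the rise from 12 to 24 hours was 1.36 ± 0.25 (adjusted p = 0.00021). At 48 hours the 4 arrays read 11.33, 11.27, 11.27 and 11.46, all above the highest control, where 27.1% of all genes had no overlap.

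Against the controls Lect2 was 0.70 ± 0.23 higher at 24 hours (adjusted p = 0.015) and 0.86 ± 0.28 higher at 48 hours (adjusted p = 0.017). At 24 hours the lowest array, replicate 1, lay at the level of the lowest control, so the groups overlapped. These calls ended with the hybridization controls or the Gapdh difference as a covariate (adjusted p up to 0.36), and that at 48 hours also after quantile normalization, whereas the rise from 12 to 24 hours held under all 14 settings. It then read 11.10, 10.60, 10.75 and 11.12 at 3 days and 10.71, 10.85, 10.42 and 10.54 at 4 days, approaching the controls. The mean at 24 and 48 hours was 0.97 ± 0.20 above that at 4 weeks and 3 months (adjusted p = 0.00071). This difference, which uses no control array, also held under all 14 settings and with any array of the compared groups left out. The 1-week fall (-0.73 ± 0.28, adjusted p = 0.037) rested on replicate 4, at 7.67 beside 10.42, 10.54 and 10.32. Without that array the change was -0.04 (adjusted p = 0.87), and the call also ended without control replicate 1, 3, 4 or 5.

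**Figure D2:**
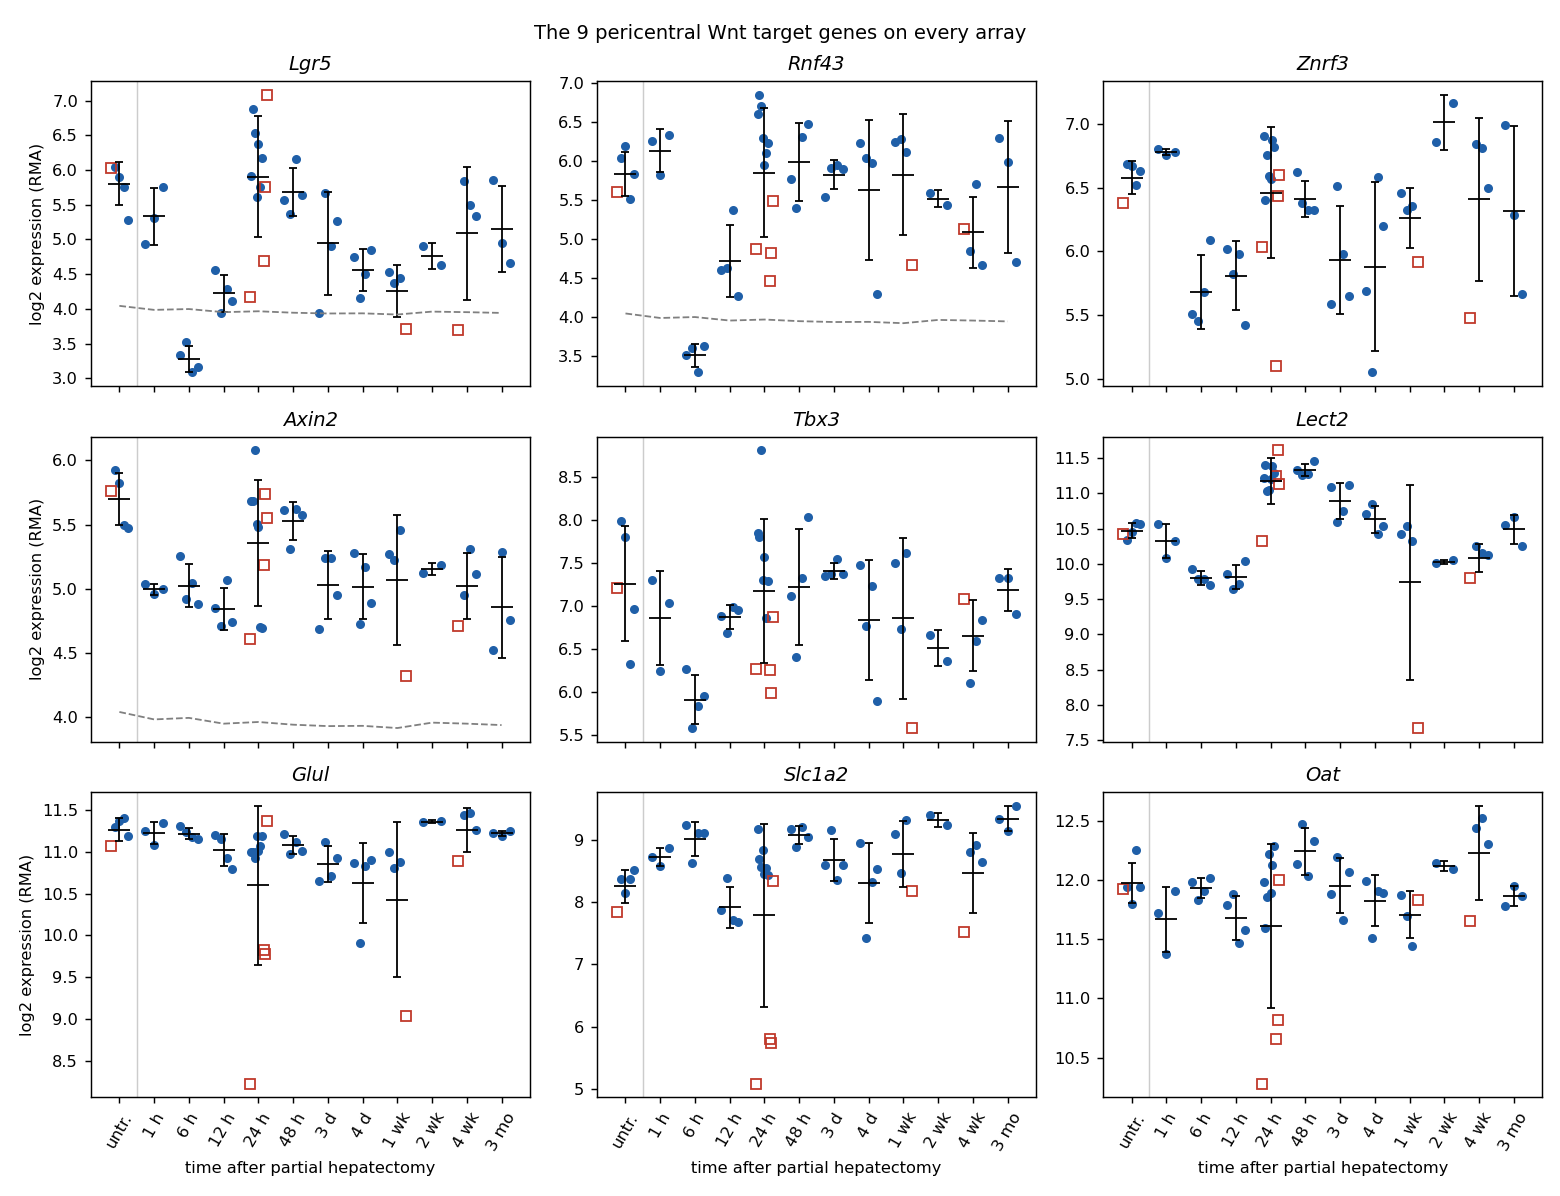
Log2 expression of the 9 genes on each array, by time after the operation; black bars are the mean and SD of each group, red open squares the 7 arrays that stood apart, and the dashed line, where it is in range, the median of all probe sets. Lgr5 and Rnf43 drop below that line at 6 hours, Lect2 is highest at 24 and 48 hours, and 3 of the 24-hour squares lie far below the other arrays for Glul, Slc1a2 and Oat.

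Glul, the best-known pericentral enzyme, was called at none of the 11 times. It read 11.07, 11.30, 11.37, 11.40 and 11.19 on the controls and 11.31, 11.23, 11.18 and 11.16 at 6 hours, the time of the deepest fall of Lgr5. The groups overlapped and the difference was -0.05, with a 95% interval from -0.78 to 0.69. At 24 hours it ran from 8.23 over a median of 11.001 to 11.37 (-0.67 ± 0.29, adjusted p = 0.076). The 3 lowest 24-hour arrays, replicates 1, 9 and 10 at 8.23, 9.82 and 9.77, are among those that stood apart, and the other 8 lay between 10.92 and 11.37. The same arrays were lowest for Slc1a2 (5.08, 5.80 and 5.74) and Oat (10.28, 10.66 and 10.82), and they also had low Cyp1a2 (9.39, 7.69 and 8.24), another pericentral gene. From 3 days to 1 week Glul ran lower, with 10.86, 9.91, 10.83 and 10.90 at 4 days and 10.99, 10.81, 10.88 and 9.04 at 1 week. All 8 of these lay under the lowest control, where 28.0% of all genes had no overlap at 4 days and 29.7% at 1 week. The changes of -0.64 ± 0.37 and -0.84 ± 0.37 were not called (adjusted p = 0.17 and 0.066). Without the 7 arrays they were -0.69 and -0.42 and called (adjusted p = 0.00017 and 0.027), as was the change at 3 days (-0.46, adjusted p = 0.0061). At 2 weeks it was back at 11.35 and 11.37.

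Slc1a2 had no call over all 52 arrays, but its values lay mostly above the controls. It read 7.84, 8.38, 8.14, 8.36 and 8.52 on the controls, 9.23, 8.62, 9.11 and 9.11 at 6 hours, and 9.16, 8.88, 9.19 and 9.05 at 48 hours. Both groups lay wholly above the controls (0.77 ± 0.52, adjusted p = 0.33, and 0.83 ± 0.52, adjusted p = 0.23), where 29.6% and 27.1% of all genes had no overlap. Between them, at 12 hours, it read 7.87, 8.38, 7.71 and 7.68, all below the 6-hour arrays, at a step where 29.6% of all genes had no overlap. At 3 months it read 9.34, 9.14 and 9.54, again above every control (1.09 ± 0.56, adjusted p = 0.14), where 34.8% of all genes had no overlap. Without the 7 arrays the changes were 0.67 at 6 hours (adjusted p = 0.017), 0.72 at 48 hours (0.0091) and 0.99 at 3 months (0.0016), all called. The fall from 6 to 12 hours, -1.10 ± 0.55 (adjusted p = 0.23), was called too (adjusted p = 0.00017). The step from 12 to 24 hours turned from -0.13 to 0.76 (adjusted p = 0.0029).

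Oat was called at no time, and its group means stayed between 11.61 and 12.25. It read 11.93, 11.95, 11.80, 12.26 and 11.95 on the controls and 11.99, 11.83, 11.91 and 12.02 at 6 hours. The difference was -0.04, with a 95% interval from -0.56 to 0.48. The largest step was from 24 to 48 hours (0.63 ± 0.22, adjusted p = 0.086), where the 48-hour arrays read 12.14, 12.48, 12.04 and 12.33.

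**Figure D3:**
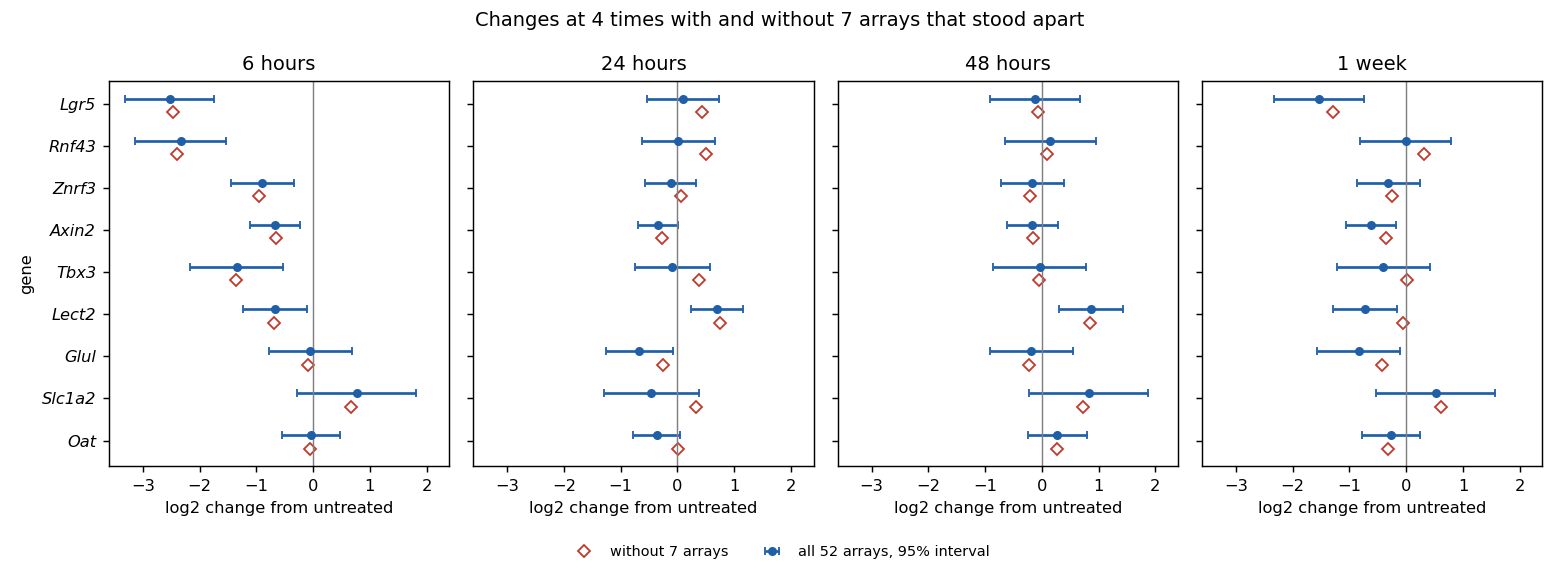
Log2 change from untreated liver at 6 hours, 24 hours, 48 hours and 1 week; filled points with bars are the change over all 52 arrays with its 95% interval, and open diamonds the change without the 7 arrays that stood apart. At 6 hours the intervals of Lgr5 (-3.32 to -1.74) and Rnf43 (-3.13 to -1.54) lie apart from those of Glul (-0.78 to 0.69) and Oat (-0.56 to 0.48), and at 1 week the Lect2 diamond lies near 0.

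Other probe sets of the same genes were mostly too dim to add to this. The second sets of Axin2 and Lgr5 and 2 of the other sets of Tbx3 were near background in all 12 groups, and that of Znrf3 in 11. The second set of Glul, with group means between 8.89 and 9.90, gave -0.35 ± 0.47 at 6 hours (adjusted p = 0.69). A second bright set of Slc1a2 gave -0.02 ± 0.28 at that time (adjusted p = 0.98), where the set used here gave 0.77, so only 1 of these 2 sets was higher at 6 hours. A dim set of Slc1a2, near background in 10 groups, was called lower at 48 hours and at 5 later times, the opposite direction to the set used.

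Among the genes of the pathway around the targets, the R-spondin rose while its receptors fell. Rspo3 was higher than in the controls at 6 hours (1.19 ± 0.29, adjusted p = 0.0014), 12 hours (1.55 ± 0.29, 4e-05) and 24 hours (1.14 ± 0.23, 0.00014). Its groups did not overlap the controls at any of these times, as held for 29.6%, 32.8% and 8.96% of all genes in turn. Its arrays read 4.60 to 5.30 in the controls and 6.37 to 6.89 at 12 hours. The central vein ligands Wnt2 and Wnt9b were called higher at 24 hours (0.70 ± 0.20, adjusted p = 0.0053, and 0.55 ± 0.14, 0.0027), with overlap. At 6 hours they were not called (0.60 ± 0.25, adjusted p = 0.079, and 0.36 ± 0.18, 0.16). Among 25 Wnt ligands and R-spondins measured, 1 was higher and 1 lower at 6 hours (11.4% and 10.5% of all genes). At 24 hours 5 were higher and 5 lower (18.9% and 12.8% of all genes). Without the 7 arrays these were 3 and 4 (15.5% and 9.15% of all genes). Of the 25, however, 11 were near background in the controls and 15 at 24 hours.

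Lgr4, the R-spondin receptor that hepatocytes express throughout the lobule, fell by 0.81 ± 0.18 at 6 hours (adjusted p = 0.00051), 1.10 ± 0.18 at 12 hours (5.4e-06) and 0.93 ± 0.14 at 24 hours (2.5e-06). At 48 hours it was no longer called (-0.34 ± 0.18, adjusted p = 0.14). The Frizzled receptor Fzd8 fell by 1.41 ± 0.28 at 6 hours (adjusted p = 0.00015) and by 1.28 ± 0.28 at 12 hours (0.0004). Of 17 Wnt receptors measured, 6 were lower and 2 higher at 6 hours, where 10.5% of all genes were lower and 11.4% higher. Their median change was -0.10 against -0.02 over all genes. Without the 7 arrays 5 were lower and 2 higher (12.3% and 11.6% of all genes). A receptor that rose was Ror1, a Wnt receptor outside the beta-catenin branch (1.79 ± 0.35 at 6 hours, adjusted p = 1e-04). Of 13 nuclear factors of the pathway, 5 were lower and 1 higher at 6 hours (10.5% and 11.4% of all genes), with a median change of -0.38. Tcf7l1, a TCF factor that mostly represses, was lower at 10 of the 11 times, and at 9 without the 7 arrays. Ctnnb1, which encodes beta-catenin itself, was not called at 6 hours (0.02 ± 0.14, adjusted p = 0.94) and was higher at 12 hours (0.61 ± 0.14, 0.00077) and 1 week (0.77 ± 0.14, 4.2e-05, and 0.50 without the 7 arrays, 0.0027). Of 16 genes of beta-catenin and its destruction complex, 8 were higher and none lower at 1 week, where 21.8% of all genes were higher, and 5 were higher without the 7 arrays (17.8% of all genes).

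Notum, which encodes an enzyme that inactivates Wnt ligands and is itself a pericentral Wnt target, shared the 6-hour fall of Lgr5 and Rnf43. It fell from 7.06 ± 0.28 (SD, n = 5) to 5.32 ± 0.15 (SD, n = 4) at 6 hours (-1.74 ± 0.37, adjusted p = 0.0004) and to 5.25 ± 0.33 (SD, n = 4) at 12 hours (-1.81 ± 0.37, 0.00019). From 6 to 12 hours Lgr5 changed by 0.95 and Rnf43 by 1.22, neither called (adjusted p = 0.15 and 0.056). The difference of Notum from them was not tested. At 24 hours Notum was not called (-0.22 ± 0.30, adjusted p = 0.61). Of the 16 secreted and feedback inhibitors it was the only one called lower at 6 hours, and none was higher. Over all genes 10.5% were lower and 11.4% higher at that time. Of the 16, 8 were near background in the controls and 8 at 6 hours, where a fall could hardly be seen.

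**Figure D4:**
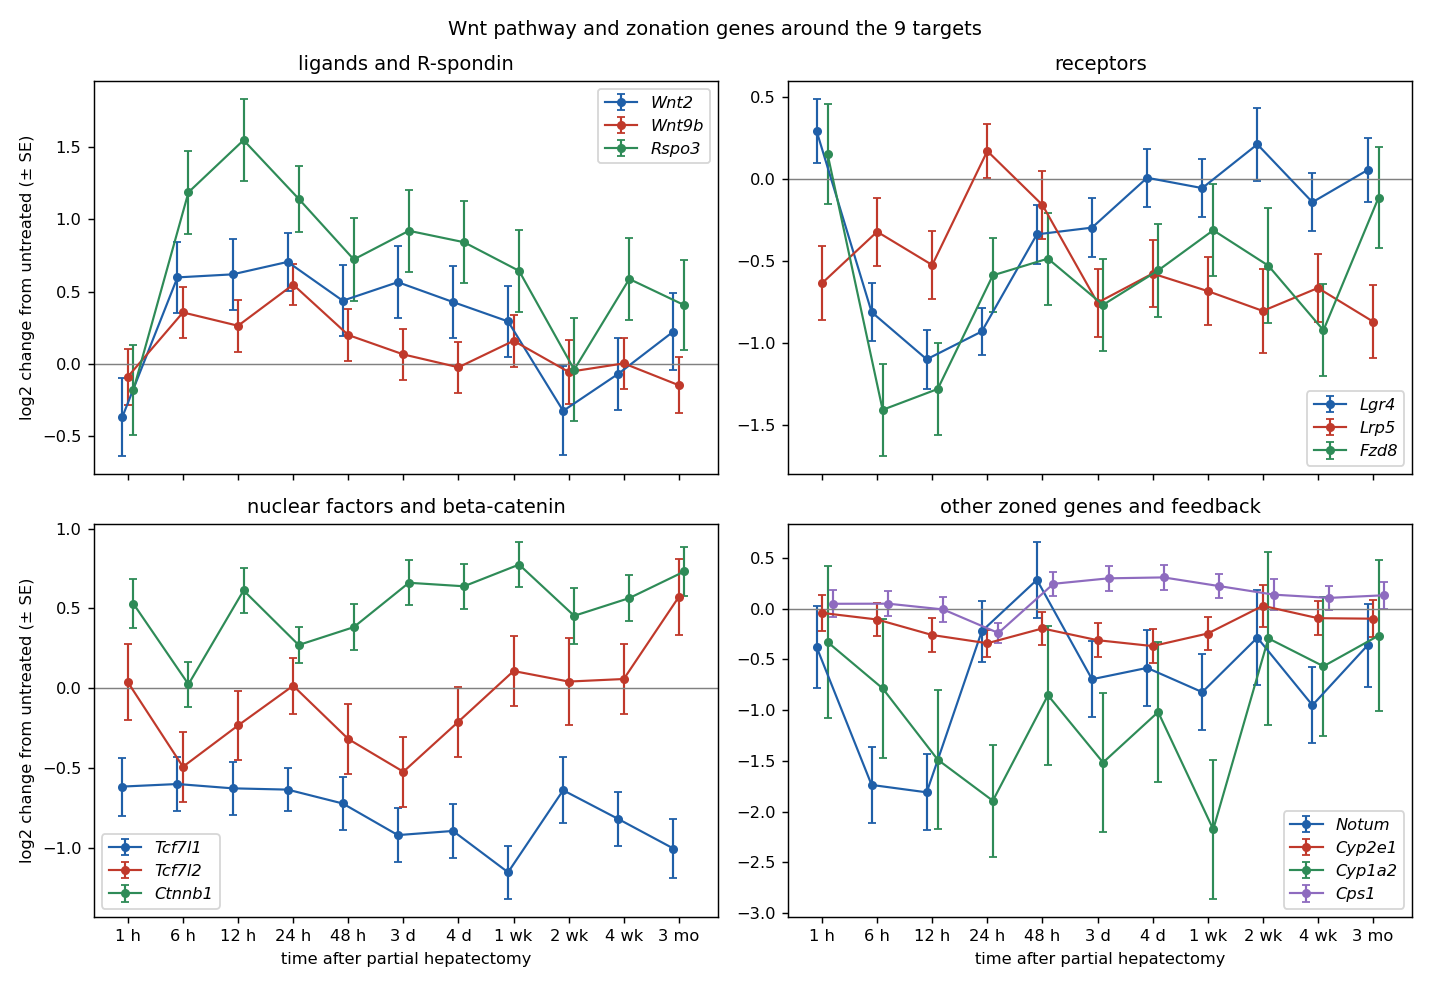
Log2 change from untreated liver ± SE at the 11 times for ligands and R-spondin, receptors, nuclear factors with beta-catenin, and other zoned genes with the feedback gene Notum. Rspo3 peaks at 12 hours (1.55) while Fzd8 (-1.41 at 6 hours), Lgr4 (-1.10 at 12 hours) and Notum (-1.81 at 12 hours) are at their lowest.

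Other pericentral genes did not share one course either. Of 24 measured, 2 were higher and 4 lower at 6 hours, 4 and 6 at 12 hours, and 3 and 10 at 24 hours. Over all genes 11.4% were higher and 10.5% lower at 6 hours, 17.9% and 12.0% at 12 hours, and 18.9% and 12.8% at 24 hours. Their median changes were -0.30, -0.64 and -0.43, against medians between -0.04 and -0.01 over all genes. Without the 7 arrays the lower counts were 7, 13 and 9, where 12.3%, 12.3% and 9.15% of all genes were lower, and the higher count at 24 hours was 6 (15.5% of all genes). The largest fall was Cyp7a1, which starts the conversion of cholesterol to bile acids, at 6 hours (-6.10 ± 1.04, adjusted p = 1.5e-05). Cyp1a2, a drug-metabolizing enzyme, was called lower at 24 hours (-1.89 ± 0.55, adjusted p = 0.0071) and 1 week (-2.17 ± 0.69, 0.011). Without the 7 arrays these changes were -1.02 (adjusted p = 0.0038) and -0.70 (0.098); at 1 week replicate 4 read 5.44 beside 11.23, 11.51 and 10.65. Cyp2e1 changed by -0.34 at 24 hours, and by -0.19 without the 7 arrays (adjusted p = 0.12). Of 23 periportal genes, 6 were higher and 3 lower at 6 hours, and 7 and 9 at 12 hours; without the 7 arrays these were 6 and 8, and 8 and 11. Ass1, a urea cycle enzyme of the portal side, fell by 1.71 ± 0.50 at 6 hours (adjusted p = 0.0091), while Cps1, the enzyme that opens that cycle, was not called then (0.05 ± 0.12, adjusted p = 0.84). Early falls thus occurred among genes of both zones, whose difference was not tested.

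Some markers of other liver cells moved over the same times. At 6 hours the 10 sinusoidal endothelial markers had a mean level of 6.46, with arrays between 6.35 and 6.63, against 5.35 to 6.26 in the controls. Of the 10, 2 were called higher, Lyve1 (3.51 ± 0.61, adjusted p = 2e-05) and Cdh5 (1.27 ± 0.23, 3e-05), where 11.4% of all genes were higher. The rise of the list mean rested largely on these 2 genes. The 10 Kupffer cell markers had 2 called higher at 6 hours (arrays from 5.57 to 5.80, controls from 4.46 to 5.37) and 9 at 24 hours (from 5.89 to 7.38), where 18.9% of all genes were higher. The 7 hepatocyte markers stayed at 13.00 to 13.06 at 6 hours against 12.88 to 13.07 in the controls. The part of these shifts in the changes of the target genes was not tested. Mki67, a marker of dividing cells, was not called at 24 hours (1.07 ± 0.61, adjusted p = 0.18), where 4 arrays read 5.20 to 7.77 and the other 7 read 2.95 to 4.20. Its change reached 5.83 ± 0.76 at 48 hours (adjusted p = 3.1e-07), when the only called target was Lect2.

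Among the 9 genes, the courses over the 12 group means were most alike for Tbx3 and Rnf43 (r = 0.796), Lgr5 and Rnf43 (0.787) and Lgr5 and Tbx3 (0.759). Such coefficients rest on 12 points that share arrays and normalization and are given as a description. Among 10915 genes above the dimmest, those closest to Rnf43 were Agfg2 (0.975), Dlg3 (0.957) and Irs1 (0.95), the insulin receptor substrate. Those closest to Lgr5 were Timmdc1 (0.926), Rtp3 (0.913) and Fam120c (0.912), and to Axin2 Fkbp8 (0.912), Rab1b (0.906) and Car7 (0.905). Lect2 was closest to Igf2r (0.908), Alad (0.898) and Wbp1 (0.894), and Znrf3 to Cyb5d2 (0.907), Fbxl20 (0.896) and Sec22c (0.885).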

How the data were processed

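Liver RNA of 52 samples was hybridized to Affymetrix mouse whole-genome arrays after oligo dT labelling, per the labels' protocols. The deposited log2 values were made by the authors with RMA in oligo 1.52.0, per the submitters' processing notes. RMA equalizes arrays and can hide a shift common to most genes; a joint run over all samples is not stated in the sources used here. Groups came from the sample titles. Platform annotation gave 34958 probe sets 1 gene, 932 several and 9211 none listed. Of the 18194 genes, 18033 matched the GRCm38.p6 gene table. limma 3.58.1 in R 4.3.3 fitted 12 group means over all 52 arrays (lmFit, eBayes). It gave 11 contrasts with the 5 controls, which share those arrays, 10 between successive times, and 24 and 48 hours against 4 weeks and 3 months. The number of arrays limits the precision.

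The members and lists were chosen with earlier results of these data known. Genes outside the members were named by the F test (up to 4 per list) or as index genes, and the 3 most alike per called member by correlation of group means; Lyve1 and Cdh5 came from the marker lists by that rule. The 14 other settings were array weights, a robust trended prior, further median centring or quantile normalization, a filter at the 40th percentile, averaged probe sets, fits of a contrast's groups alone, a replicate block, a threshold of 0.01, 3 technical covariates, and leaving out the 24-hour arrays with Xist or the 7 arrays that stood apart. Other probe sets were also tried, and each array was left out in turn. The list counts, named genes and shares of all genes without the 7 arrays were added after seeing the data. In simulated data of 18194 genes, 84% of 2-fold changes were found at 6 hours, 94% at 24 hours and 74% at 2 weeks. In each simulation only 100 genes changed 2-fold and 100 4-fold, in 1 group, and each gene had 1 spread for all groups. Far more genes were called in the real data, so these rates do not hold for the 9 genes.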

Additional observations from a re-analysis of the deposited data

Results flagged for a closer look

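Among 72 groups of 4 to 10 arrays, the 9 genes in 8 groups each, 8 had 1 array that lay far from the rest by Dixon's 95% criterion; chance gives about 1 in 20. Replicate 4 at 1 week was low for Glul (9.04), Lect2 (7.67) and Rnf43 (4.66). Replicate 2 at 4 days was low for Glul (9.91), and replicate 4 at 4 days was low for Rnf43 (4.29). Replicate 1 at 3 days was low for Rnf43 (5.54), replicate 3 at 3 days was high for Tbx3 (7.55), and replicate 2 at 48 hours was low for Axin2 (5.31).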

How the results depend on the processing

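Over all settings without other probe sets, the 28 called values of the 9 genes were recomputed 688 times: the call was kept 572 times, ended 115 times and changed direction once. Of 3992 recomputed values that were not called, 108 became called. The count of calls against untreated liver, 20, was 31 with the groups of each contrast alone, 6 at an adjusted p under 0.01, 9 with the hybridization controls and 8 with the poly-A controls as a covariate, and 15 to 23 with 1 array left out. The 6 calls between successive times became 11 with the groups alone, 14 with array weights, 15 without the 7 arrays that stood apart, and 5 to 9 with 1 array left out. The 2 calls of 24 and 48 hours against 4 weeks and 3 months became 1 with the groups alone, the mean of probe sets, quantile normalization, array weights or an adjusted p under 0.01, 4 without the 7 arrays, and 1 to 3 with 1 array left out. The 5 genes called in the F test became 8 with array weights, 9 without the 7 arrays, and 5 or 6 with 1 array left out.

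Dimmer probe sets gave the other direction for Axin2 at 6 hours (0.026), 12 hours (0.049), 1 week (0.081), 3 months (0.014) and at 24 and 48 hours against 4 weeks and 3 months (-0.055), for Lgr5 from 12 to 24 hours (-0.021), for Tbx3 at 6 hours (0.109 and 0.064) and 24 hours (0.258), for Znrf3 at 6 hours (0.197), 12 hours (0.031) and from 1 to 6 hours (0.120), and for Slc1a2 at 48 hours (-0.639), 3 days (-0.740), 4 days (-0.545, and -0.412 in a further set), 1 week (-0.784), 4 weeks (-0.559) and 3 months (-0.548). Lgr5 at 4 days turned to 0.081 with the poly-A controls as a covariate, and Slc1a2 from 12 to 24 hours to 0.758 without the 7 arrays. Where no value above shows it, the cause was not tested. With a replicate block the counts were 19, 9, 3 and 6 in the same order. Arrays with the same number did not deviate together more than others (median r 0 over 224 pairs, 48 of them over 0.1). Pairs with different numbers had a median r of 0.01 over 988 pairs, 257 of them over 0.1. These values gave no sign that the numbers pair the arrays, but they cannot exclude it. The number of arrays and the dimness of Lgr5 and Rnf43 at 6 hours limit these values.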
